A study of Homo sapiens with 16 samples.

Results

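The MYC network is a set of transcription factors that share a basic helix-loop-helix leucine zipper and bind E-box DNA as pairs. MYC, MYCN and MYCL activate transcription as partners of MAX, while the MXD proteins, MXI1, MNT and MGA also pair with MAX and oppose MYC at its target genes. MLXIP (also called MondoA) belongs to a parallel branch, in which it pairs with MLX and responds to glucose. MYC messenger RNA is short-lived and is known as a target of m6A (N6-methyladenosine), a methyl mark on adenosines of RNA that readers such as the IGF2BP proteins can bind.

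The 10 genes described here are MYC, MYCN, MYCL, MAX, MXD1, MXD4, MNT, MXI1, MGA and MLXIP. Their members are the regions of the deposited merged m6A list, and the peaks of the individual lists, that overlap the GENCODE span of these genes on hg38. There were 33 such regions of 36970 in the series and 190 such peaks of 191974. All 33 regions were called in at least 1 list and 30 of them lay wholly inside the span, and 9 of the 10 genes held a region. MYCN, the family member best known from neuroblastoma, held 0 regions and 0 peaks in any of the 8 lists, which says only that no peak was called there.

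The study profiled m6A by MeRIP-seq (antibody pull-down of methylated RNA fragments followed by sequencing) in the prostate cancer line C4-2B, which is sensitive to enzalutamide, and in MDV-R, a resistant line raised from C4-2B by passage in that drug, a blocker of the androgen receptor. Both lines are labelled wild type, were grown in RPMI with serum and were taken at day 3, with 4 immunoprecipitated (IP) and 4 input libraries each, and the comparison is therefore of 1 sensitive with 1 resistant line. MDV-R cells were maintained in enzalutamide according to the study's methods, so line and drug cannot be told apart. The sources used here do not say that the 4 replicates came from separate cultures, so p-values measure the spread between these libraries, which may be technical.

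Depth, recovered from the peak statistics, was 0.864 to 1.21 M (mega) tags, or deduplicated reads, in the C4-2B IP libraries and 0.897 to 1.03 M in those of MDV-R. The input libraries held 0.901 to 1.23 M tags in C4-2B and 1.60 to 2.97 M in MDV-R without overlap (exact permutation test, p = 0.0286, the smallest that 4 against 4 allows), so input depth and line cannot be told apart. Replicate 1 of C4-2B stood apart with 13191 peaks, against 23254 to 30645 in the other 7 lists. Samples were assigned by their cell line field, although the MDV-R titles hold the name of another line, T24R2. All 8 prostate luminal markers had a called region overlapping their span in each line, against 2 of 8 urothelial markers (UPK2 and UPK3A), also in each line. A region overlapping the span of UPK2 was called in all 8 lists and was higher in MDV-R in IP level (tags at the summit per M tags of the library, CPM), at 45.8 to 66.9 against 26.6 to 42.6 CPM (log2 difference 0.68, 95% interval 0.33 to 1.02, limma adjusted p = 0.00162). The summit of that region was assigned to another gene, so its level cannot be credited to UPK2. UPK3A had a peak in every MDV-R list and in 2 lists of C4-2B, and the bearing of these markers on the results was not tested.

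Peaks were read in 3 ways. The IP level is the number of IP tags stacked at the summit, given as CPM (tags per M tags of the IP library), a reading at a single base that does not depend on gene length. Each list was read at its own summit, and these can differ between lists, by up to 887 nt at region 9 of MGA. The local background is what the peak caller expected at that summit from input, in multiples of the average background of the same library. It is a local reading and at most a rough guide to how much of the transcript was present, since it varies along a gene. Over the lists with a call its mean was 54.2, 85.7 and 170.9 times at regions 1, 2 and 3 of MYC. The fold enrichment is the deposited ratio of the IP pileup to that background, both in tags and each with a pseudocount of 1 added. The pseudocount lowers the ratio most where the background is low. In RNA of a whole culture, fewer cells carrying a transcript and less of it in each cell cannot be told apart.

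A summit lay inside 32 of the 33 regions. In the canonical transcript of each gene, the strongest of them fell in the coding sequence in 15 regions, in the 5′UTR in 5, in the 3′UTR in 3, and in an intron or outside the transcript in 9. The region without a summit of its own, the third of MLXIP, was overlapped by peaks whose summits stood beyond its end. Over all annotated transcripts, 18 summits were coding, since the first regions of MYC and MYCL and the second region of MAX are coding only in other transcripts. GGAC, the most common core of the sequence around m6A, was found at most 50 nt from the summit, read along the gene, in 10 of the 26 regions with an exonic summit, or 38.5%. The share was 45.5% over all 19873 exonic regions, with 28.5% for the opposite strand and 28.9% for windows of the same width 300 nt away. On the opposite strand of the 26 regions the motif was found in 9. Of the 11 exonic regions called in all 8 lists 3 held it, against 50.4% of all 7442 such regions, and 4 of the 11 held it on the opposite strand. A match of these letters is a description of the window and not a mapped site.

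In MNT region 2, MYC region 3 and MGA region 3, on which the comparison of the lines also turns, the nearest copy lay 155, 84 and 148 nt from the summit. These are not shown. Shown next as examples are the nearest matches in 5 of the 10 exonic regions with GGAC at most 50 nt from the summit. They are read 5′ to 3′ along the gene from the hg38 reference, with that copy of GGAC in capitals.
MYCL region 1, chr1:39901427-39901446, minus strand: cagggagcGGACatggacta
MAX region 1, chr14:65102422-65102441, minus strand: tgtgggggGGACtcggcttg
MXD1 region 1, chr2:69938117-69938136, plus strand: gagagcacGGACtatctcac
MNT region 5, chr17:2387604-2387623, minus strand: atggaggaGGACcgggcggg
MGA region 7, chr15:41750401-41750420, plus strand: gagggaatGGACattttcag

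The adenosine of the motif was 5 nt downstream of the summit in MYCL, 39 nt in MAX, 3 nt in MXD1 and 30 nt in MGA, and 35 nt upstream of it in MNT. In MYCL the atg that follows the motif is the start codon of the canonical transcript, and a further copy overlaps that codon. The regions of MXD1 and MAX hold the motif followed by t, and those of MYCL and MGA hold it followed by a.

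Across the lists, the 10 genes supplied 13 peaks in C4-2B replicate 1 and 20 to 23 in the other C4-2B lists, and 25 to 30 in the MDV-R lists. Set against the size of each list this was 8.59 to 9.89 peaks per 10000 in C4-2B and 9.79 to 11.1 in MDV-R. All 8 lists held 12 of the 33 regions, in 6 genes, which is 36.4% against 25.9% of all 36076 called regions. They were 1 region of MYC, 2 of MYCL, 1 of MAX, 2 of MNT, 4 of MGA and 2 of MLXIP. The share depends on where a region lies, since 45.0% of all regions classed as coding and 10.6% of those classed as intronic were called in all 8.

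No region of the network was called in every list of a line and in 0 of the other (0 of 33 each way), where 1.22% of all regions were called so in C4-2B and 3.68% in MDV-R. More MDV-R than C4-2B lists held 18 of the 33 regions, 1 was held by more C4-2B lists and 14 by equal numbers, where 49.7% of all regions were held by more MDV-R lists and 18.4% by more C4-2B lists. MDV-R lists alone held 7 regions and C4-2B lists alone held 0, against 28.3% and 13.3% of all regions. By two-sided Fisher's exact test 0 of the 33 regions had an unadjusted p below 0.05, and the lowest adjusted p among all 36076 regions was 0.584. Only a call in every list of a line and in 0 of the other can give a p below 0.05 (0.0286). The test therefore adds nothing to these counts and cannot show that the lines are alike. In 4 regions C4-2B replicate 1 was the only C4-2B list without the call.

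**Figure D1:**
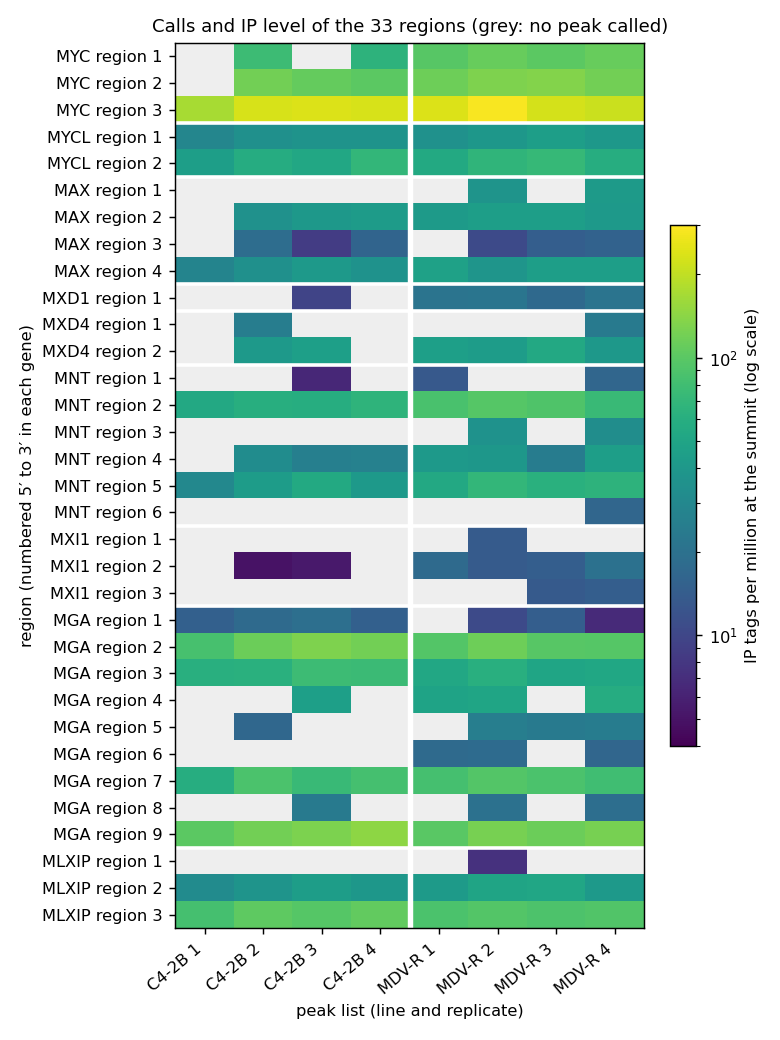
IP level at the strongest summit (colour, in CPM on a log scale) of the 33 regions, rows, in the 4 C4-2B and 4 MDV-R lists, columns, with grey where no peak was called. The rows without grey are the 12 regions called in all 8 lists, and the third region of MYC is the brightest row in every list.

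MYC, the family member expressed in most dividing cells, carried 3 regions, 1 for each exon of its canonical transcript, and in every list with several of them called the IP level increased toward the last. Region 1 (chr8:127735893-127736469) covers the start of the transcript, with its summit 360 nt before the start codon, and was called in 2 lists of C4-2B and all 4 of MDV-R. Where it was called, its IP level was 64.8 and 77.3 CPM in C4-2B replicates 4 and 2 and 97.7, 110.5, 101.3 and 109.3 CPM in MDV-R replicates 1 to 4. The MDV-R values all lay above the pair in C4-2B, but the other C4-2B lists give no value, so no test was run.

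Region 2 of MYC (chr8:127737976-127738998) lies on exon 2, with its summit 398 nt into the coding sequence and a GGAC 5 nt from it, and was called in every list except C4-2B replicate 1. It measured 101 to 119 CPM in 3 C4-2B lists and 117 to 135 CPM in 4 MDV-R lists, and the ranges overlap. Regions 1 and 2 also overlap CASC11, a noncoding gene on the opposite strand, and since the peaks carry no strand their tags cannot be assigned to MYC alone.

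Region 3 of MYC (chr8:127740127-127741271) covers the end of the coding sequence and the start of the 3′UTR, with its summit 187 nt before the last coding base, and was the strongest of the 33 in IP level in every list. Its IP level was 169.9, 229.8, 240.1 and 231.6 CPM in C4-2B replicates 1 to 4 and 237.5, 285.8, 228.8 and 211.9 CPM in MDV-R replicates 1 to 4. The lines overlap and the means were 217.9 ± 32.3 and 241.0 ± 31.7 (SD, n = 4 each), a log2 difference of 0.15 (95% interval -0.18 to 0.48, limma adjusted p = 0.514).

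The background under region 3 of MYC separated the lines where the IP level did not. It was 259.7, 192.9, 217.6 and 203.6 times the library average in C4-2B and 119.6, 107.2, 176.4 and 90.3 times in MDV-R. Every MDV-R value lay below every C4-2B value (15.5% of all 9327 regions called in 8 lists were so, and 2.11% the other way), and MDV-R replicate 3 was the nearest to C4-2B. The log2 difference of -0.86 (95% interval -1.67 to -0.05) had a limma adjusted p of 0.141 over the 9327 regions and an exact permutation p of 0.0286. With each library centred on its median over the shared regions it was -0.37 (limma adjusted p = 0.268).

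Fold enrichment at region 3 of MYC was 1.95, 3.54, 3.28 and 3.37 in C4-2B and 5.82, 7.80, 3.84 and 6.83 in MDV-R. Every MDV-R list was higher (10.2% of all shared regions were so, and 0.943% the other way), and the log2 difference of 0.99 (95% interval 0.29 to 1.69) stood at percentile 93.0 of all differences, with a limma adjusted p of 0.0773 and an exact permutation p of 0.0286. Without MDV-R replicate 3, whose input was the shallowest of that line, the difference was 1.20 with a limma adjusted p of 0.0127, and without C4-2B replicate 1 it was 0.79 with 0.213. After centring it was 0.59 with 0.166. Over all shared regions the background was lower in MDV-R by a median log2 of -0.48 and the fold enrichment higher by 0.44, and the part of input depth in the MYC values was not tested.

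**Figure D2:**
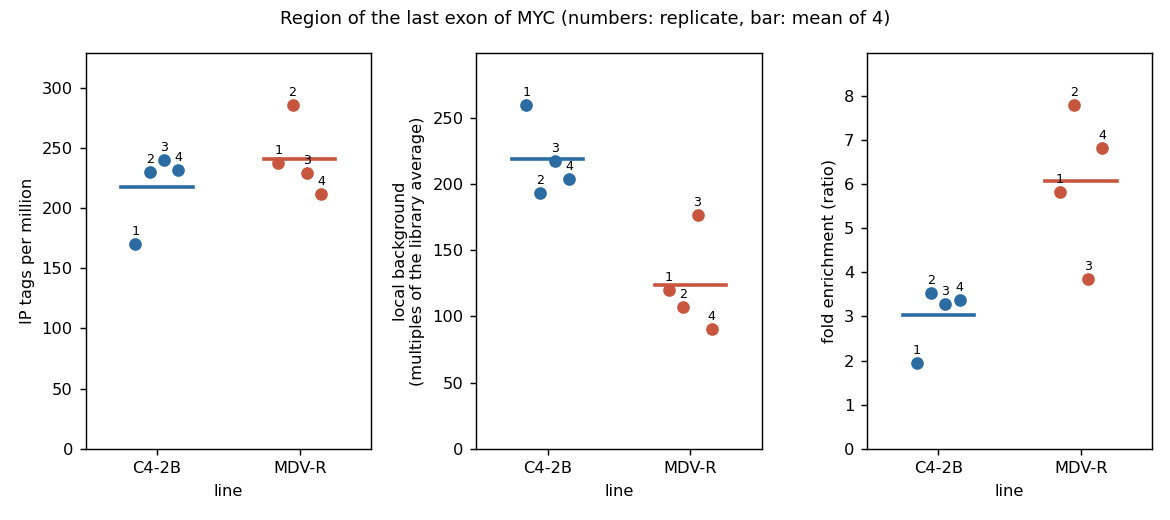
IP level, local background and fold enrichment (linear axes from 0) of the region over the last exon of MYC in the 4 libraries of each line, with replicate numbers and a bar at the mean. IP levels overlap between the lines, whereas all MDV-R backgrounds lie below and all MDV-R fold enrichments above those of C4-2B.

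MYCL, the family member first found in lung cancer, held 2 regions and both were called in all 8 lists. Region 1 (chr1:39900765-39902032) had its summit 7 nt before the start codon of the canonical transcript and its IP level was 29.0, 34.7, 36.4 and 37.1 CPM in C4-2B replicates 1 to 4 and 35.5, 39.3, 44.8 and 40.2 CPM in MDV-R replicates 1 to 4. Region 2 (chr1:39895649-39898240) is the longest of the 33 at 2592 nt, with its strongest summit in the 3′UTR 375 nt after the last coding base. It read 44.8 to 69.5 CPM in C4-2B and 55.5 to 72.1 CPM in MDV-R. The summit stood at 39897410 to 39897464 in C4-2B replicates 1, 3 and 4, and at 39896947 to 39897000 in the other lists. Every comparison of the lines at this region, also within the gene, is therefore partly between different places.

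Neither region of MYCL differed beyond the spread of the libraries. The log2 differences in IP level were 0.22 (95% interval -0.10 to 0.54, limma adjusted p = 0.292) and 0.19 (-0.14 to 0.52, limma adjusted p = 0.407). Region 2 also overlaps MYCL-AS1, an antisense gene, without strand to separate them.

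MAX, the common partner of the network, held 4 regions, of which the last was called in all 8 lists. Region 1 (chr14:65102334-65102635), over the 5′UTR, was called in MDV-R replicates 2 and 4 alone, at 37.2 and 42.4 CPM. Region 2 (chr14:65075754-65076863), with its strongest summit 13 nt after the last coding base, was called in every list but C4-2B replicate 1 and read 35.7 to 42.8 CPM in C4-2B and 41.3 to 44.8 CPM in MDV-R. The summit stood at 65076071 and 65076058 in C4-2B replicates 2 and 4, and at 65076466 to 65076647 in the other lists with a call. Region 3 (chr14:65069794-65070187) was weak, at 8.57 to 18.8 CPM in 3 lists of each line, and lies in an exon of a non-canonical transcript.

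Region 4 of MAX (chr14:65061251-65062196) likewise has its summit in the 3′UTR of a non-canonical transcript. Its IP level was 28.2, 34.7, 40.7 and 35.9 CPM in C4-2B and 47.7, 38.2, 44.8 and 44.6 CPM in MDV-R, where a single pair of libraries (C4-2B replicate 3 and MDV-R replicate 2) crosses. The log2 difference was 0.34 (95% interval 0.02 to 0.66, limma adjusted p = 0.0979). FNTB, a subunit of protein farnesyltransferase, has a gene span over the same bases on the opposite strand, so these tags cannot be assigned to MAX alone.

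Of the repressors, MXD1 and MXD4 held 3 regions and none was called in all 8 lists. MXD1, a factor associated with differentiation, had 1 region (chr2:69937848-69938551) in its last exon, 157 nt before the last coding base, called in 1 list of C4-2B and all 4 of MDV-R. The IP level was 9.65 CPM in C4-2B replicate 3, from 9 tags, and 21.1, 21.2, 17.5 and 21.2 CPM in MDV-R replicates 1 to 4. Across all regions 10.6% were called in at least 3 more MDV-R lists, and 2 of the 33 were, this region and region 6 of MGA (0 had at least 3 more C4-2B lists, against 3.73% of all). Counts this small do not set the network apart from all regions.

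MXD4 held a region over its 5′UTR (chr4:2261783-2262230), called once in each line at 24.8 and 23.4 CPM. Its other region (chr4:2249828-2250935), in the last exon 139 nt before the last coding base, was found in 2 lists of C4-2B and all 4 of MDV-R. That region read 40.6 and 46.1 CPM in C4-2B replicates 2 and 3 and 40.2 to 54.5 CPM in MDV-R, with overlap, and the microRNA gene MIR4800 lies inside it.

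MXI1, which is grouped with the MXD proteins, had 3 regions, all in introns and in the first part of the gene. Region 1 was called once (13.8 CPM, MDV-R replicate 2) and region 3 in MDV-R replicates 3 and 4 (13.6 and 14.5 CPM). Region 2 (chr10:110210391-110211034) was called in 2 C4-2B lists at 4.95 and 5.36 CPM, from 5 tags each, and in all MDV-R lists at 13.8 to 20.1 CPM. Those C4-2B calls rest on the library average as background (1.00 unit each), and regions 1 and 3 hold no GGAC.

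MNT, the MAX partner present in resting and dividing cells alike, carried 6 regions and the only differences in IP level that passed the test across all shared regions. Region 2 (chr17:2394891-2395709) lies on exon 2 with its summit 228 nt into the coding sequence. It measured 53.9, 60.4, 59.0 and 66.0 CPM in C4-2B replicates 1 to 4 and 86.6, 95.6, 91.5 and 74.7 CPM in MDV-R replicates 1 to 4. Every MDV-R library exceeded every C4-2B library, as in 20.8% of all shared regions.

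The means of region 2 of MNT were 59.8 ± 4.99 and 87.1 ± 9.04 CPM (SD, n = 4 each), a log2 difference of 0.54 (95% interval 0.22 to 0.86, limma adjusted p = 0.00581). Region 5 (chr17:2386193-2387840), in the last exon 674 nt before the last coding base, measured 29.8, 43.6, 54.7 and 41.7 CPM in C4-2B and 54.4, 70.1, 62.3 and 64.7 CPM in MDV-R. It also overlaps the span of the gene ENSG00000262456, and the peaks carry no strand, so its tags cannot be assigned to MNT alone. C4-2B replicate 1 was lowest and C4-2B replicate 3 reached just above MDV-R replicate 1, so the groups touch. The log2 difference was 0.59 (95% interval 0.25 to 0.93, limma adjusted p = 0.00508), and it was 0.44 (0.0244) without C4-2B replicate 1.

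These were 2 of the 12 shared regions of the network, with 0 lower in MDV-R, where 19.8% of all 9327 shared regions passed upward and 14.7% downward. A share of this size in 12 regions is near the background, and by exact permutation the unadjusted p was 0.0286 for region 2 and 0.0571 for region 5. The local background of both regions was nominally higher in MDV-R, by log2 0.49 (95% interval -0.46 to 1.43, limma adjusted p = 0.487) and 0.17 (-0.70 to 1.03, limma adjusted p = 0.810), against a median of -0.48 over all regions. Fold enrichment at region 2 was 8.26, 18.6, 14.2 and 20.7 in C4-2B and 15.8, 16.7, 10.9 and 23.8 in MDV-R, which overlap, and the limma adjusted p was 0.794. At region 5 it was 4.86 to 5.94 in C4-2B and 4.30 to 9.98 in MDV-R (limma adjusted p = 0.420).

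The other MNT regions were called less widely. Region 4 (chr17:2388027-2389440), whose summit lies in an exon of a noncoding transcript and in an intron of the canonical one, was missed in C4-2B replicate 1 alone and read 25.7 to 32.7 CPM in C4-2B and 24.3 to 44.6 CPM in MDV-R. Region 1, over the 5′UTR, was called in 1 list of C4-2B and 2 of MDV-R at 6.43 to 16.7 CPM. Region 3, on exon 3, was called in 2 MDV-R lists at 33.5 and 36.1 CPM, and region 6, in the 3′UTR, in MDV-R replicate 4 alone at 16.7 CPM from 15 tags. Region 6 also overlaps the span of ENSG00000262456.

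**Figure D3:**
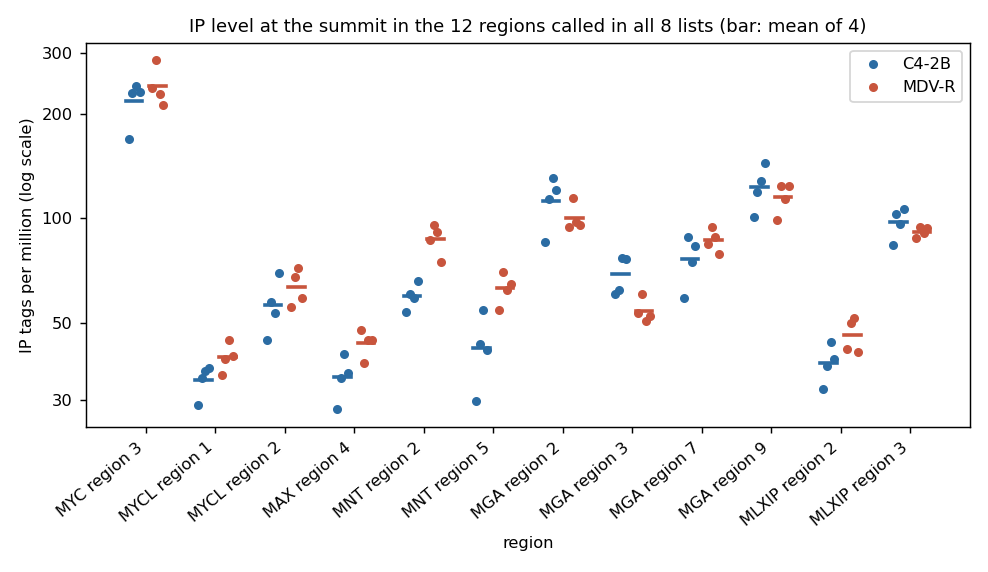
IP level in CPM at the strongest summit (log axis) of the 12 regions called in all 8 lists, with 4 points per line and a bar at the mean. The mean is higher in MDV-R at both MNT regions and lower at the third region of MGA, but the second region of MNT is the only one whose points do not overlap between the lines.

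MGA, a large MAX partner that also carries a T-box domain, held 9 regions, the most of the 10 genes, and 4 of them were called in all 8 lists. Region 2 (chr15:41668633-41669938) lies on exon 2 and region 3 (chr15:41695831-41696890) on exon 3, while region 7 (chr15:41749171-41750586) lies on exon 17 and region 9 (chr15:41765975-41767766) on exon 24, the last. All 4 summits were coding. Region 9 stood 982 nt before the last coding base, and its IP level was the second highest of the shared regions on average after that of MYC, at 101.1 to 144.8 CPM in C4-2B and 98.8 to 124.3 CPM in MDV-R.

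Region 3 of MGA was the lowest in MDV-R relative to C4-2B among the 12. It measured 60.5, 62.4, 77.2 and 76.4 CPM in C4-2B and 53.3, 60.6, 50.6 and 52.4 CPM in MDV-R, where C4-2B replicate 1 and MDV-R replicate 2 nearly coincide. The summit stood at 41696081 and 41696076 in MDV-R replicates 1 and 3, and at 41696607 to 41696693 in the other lists. Levels and backgrounds of this region were therefore not all read at the same place. The log2 difference was -0.34 (95% interval -0.66 to -0.03, limma adjusted p = 0.0861). With each library centred on its median over the shared regions it was -0.43 (limma adjusted p = 0.00444), and without C4-2B replicate 1 it was -0.41 (limma adjusted p = 0.0186).

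Regions 2, 7 and 9 of MGA overlapped between the lines in IP level. Region 2 read 85.4 to 130.8 CPM in C4-2B and 94.3 to 114.7 CPM in MDV-R, with a log2 difference of -0.15 (95% interval -0.48 to 0.18). Region 7 read 58.8, 88.2, 75.0 and 83.4 CPM in C4-2B and 84.3, 94.5, 88.6 and 79.2 CPM in MDV-R, with a log2 difference of 0.20 (-0.13 to 0.52). Region 9 had a log2 difference of -0.09 (-0.42 to 0.23).

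Setting each region against the other shared regions of its gene leaves out a change of the whole transcript and does not use the input. On this scale region 7 of MGA was higher in MDV-R by log2 0.39 (95% interval 0.14 to 0.65, limma adjusted p = 0.0411) relative to regions 2, 3 and 9. It was the only one of 10 network regions to pass, with 0 lower, where 8.60% of 3919 regions passed upward and 8.75% downward. The call is marginal, since the exact permutation p was 0.0571, and without C4-2B replicate 1 the value was 0.37 with a limma adjusted p of 0.109. Its reference regions were not all read at the same place. Region 3 in MDV-R replicates 1 and 3 and region 9 in MDV-R replicate 1 had summits apart from those of the other lists.

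Region 3 of MGA moved the other way on the same scale, by -0.33 (95% interval -0.56 to -0.10, limma adjusted p = 0.0528), with every MDV-R library below every C4-2B library, as in 11.4% of the regions tested. In MYCL, MNT and MLXIP, which have 2 shared regions each, the within-gene differences of a pair are mirror images, at 0.03, 0.05 and 0.36 (limma adjusted p = 0.862, 0.868 and 0.0600).

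The background at region 3 of MGA was 41.0, 24.4, 31.4 and 38.4 times the library average in C4-2B and 11.8, 15.7, 20.9 and 14.8 times in MDV-R, without overlap (log2 difference -1.10, 95% interval -1.91 to -0.29, limma adjusted p = 0.0672). Of all 9327 shared regions 15.5% had every MDV-R background below every C4-2B one and 2.11% the other way, with a median log2 difference of -0.48. At regions 2, 7 and 9 the log2 differences were -1.02, -0.78 and -0.68 (limma adjusted p = 0.104, 0.237 and 0.310). Fold enrichment was 3.90 to 12.9 in C4-2B and 9.42 to 18.2 in MDV-R at region 2, and 4.16 to 11.0 and 7.32 to 18.8 at region 7, both with overlap.

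Of the remaining MGA regions, region 6 (chr15:41742509-41742930), on exon 15, was absent from the C4-2B lists and called in 3 MDV-R lists, at 17.8, 18.1 and 16.7 CPM in replicates 1, 2 and 4, from 15 to 17 tags. Region 4 on exon 9 and region 5 on exon 13 were each found in 1 list of C4-2B and 3 of MDV-R, at 46.1 to 58.0 and 16.8 to 25.5 CPM. Region 8, in an intron, was found in 1 list of C4-2B and 2 of MDV-R at 19.0 to 23.6 CPM. Region 1, the only region held by more C4-2B than MDV-R lists (4 against 3), has its summit just outside the MGA span in an intron of the noncoding gene ENSG00000260926, and read 14.9 to 19.3 CPM in C4-2B and 6.69 to 14.6 CPM in MDV-R.

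**Figure D4:**
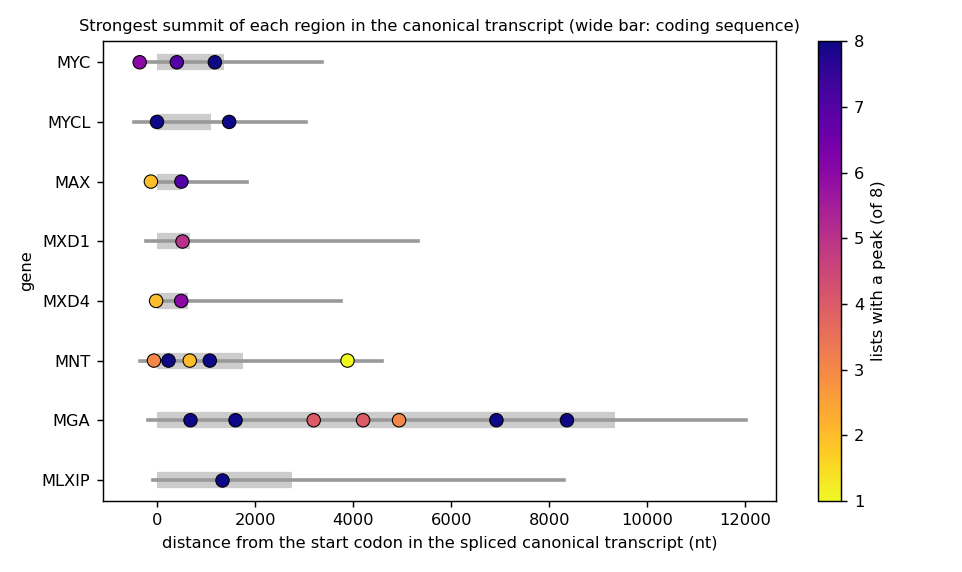
Position of the strongest summit of each region that falls in the canonical transcript (points, in nt from the start codon), with a thin bar for the transcript, a wide bar for its coding sequence and colour for the number of lists with a peak. In MGA all points lie within the coding sequence, and in MYC the point called in all 8 lists is the one nearest the end of the coding sequence.

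MLXIP, the glucose-responsive factor, had 3 regions. Region 2 (chr12:122133124-122133628), on exon 9, read 32.3, 37.7, 43.9 and 39.4 CPM in C4-2B and 42.2, 49.9, 51.6 and 41.3 CPM in MDV-R, with C4-2B replicate 3 above MDV-R replicates 1 and 4. The log2 difference was 0.27 (95% interval -0.05 to 0.59, limma adjusted p = 0.190). Region 3 (chr12:122141460-122141864) was overlapped by a peak in all 8 lists, but their summits stood 361 to 556 nt beyond its end, in the 3′UTR on exon 17, the last. The IP level at those summits was 83.7 to 106.5 CPM in C4-2B and 87.7 to 94.5 CPM in MDV-R, with overlap (log2 difference -0.08, 95% interval -0.40 to 0.23). Region 1, in an intron, was called once from 7 tags.

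In the 12 shared regions together, the median log2 difference was 0.19 in IP level against 0.06 over all shared regions, -0.46 against -0.48 in background and 0.50 against 0.44 in fold enrichment. In background 9 of 12 differences were below 0 and in fold enrichment 11 of 12 were above 0, and the limma test passed 0 of 12 for either, with an unadjusted p below 0.05 for 3 regions in each. Across all regions 11.0% passed as lower and 1.66% as higher in background, and 3.41% as higher and 0.225% as lower in fold enrichment. In both measures the median of the 12 lay close to the median of all shared regions.

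**Figure D5:**
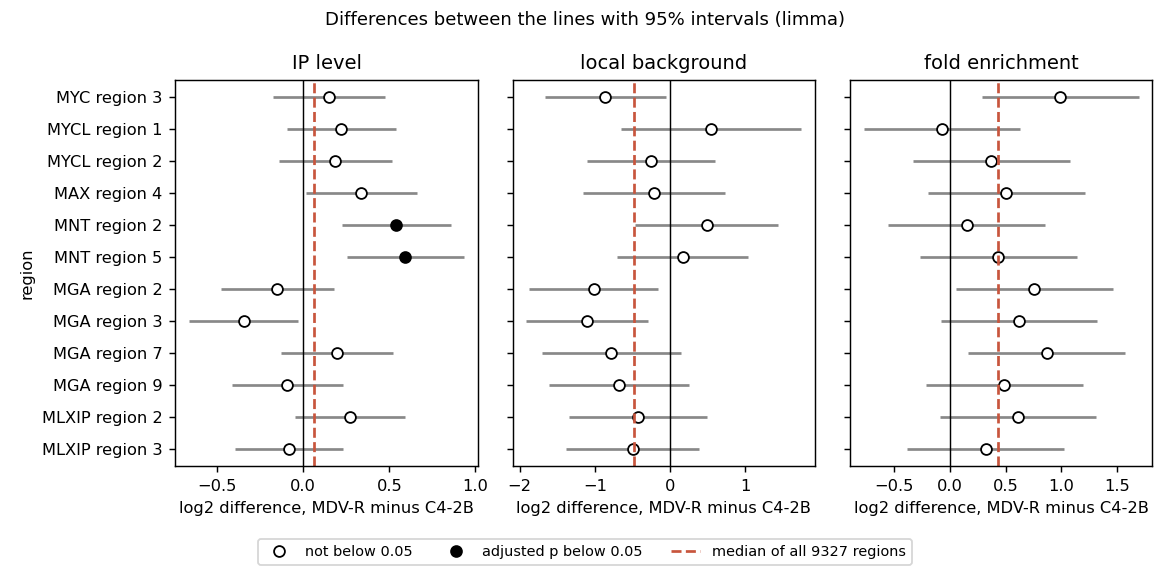
Log2 differences (MDV-R minus C4-2B) with 95% intervals from limma in IP level, local background and fold enrichment of the 12 shared regions, with filled points for an adjusted p below 0.05 and a dashed line at the median of all shared regions. The filled points are the MNT regions in IP level, and in the other panels the points scatter about the dashed line.

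The 5 other lists of the pathway held 39 genes, of which CCAT1 was not matched by name, 29 had a region and 19 had a region called in all 8 lists. These counts are of regions overlapping a gene span, and some summits were assigned to another gene. Among them are the shared regions of KAT5 (RNASEH2C) and USP28 (ENSG00000255710) and the region of CDK4 (MARCHF9). Of their 94 called regions, 0 were called in all C4-2B lists alone and 1 in all MDV-R lists alone, an intronic region of SIN3A (chr15:75411654-75412005), the corepressor that MXD proteins recruit, at 35.7 to 45.5 CPM in MDV-R. In IP level 3 of 29 shared regions were higher in MDV-R and 3 lower, where 19.8% and 14.7% of all shared regions were. In background 0 were higher and 2 lower, against 1.66% and 11.0% of all, and in fold enrichment and in the within-gene level 0 passed either way. The cofactors of MYC held 40 called regions in 10 of 11 genes, with 2 of 15 shared regions higher and 0 lower in IP level, and the genes of MYC protein turnover 22 in 7 of 9, with 1 of 7 higher and 0 lower.

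The MYC target genes held 15 regions in 6 of 10 genes, of which 2 were shared and 1 of those was lower in IP level in MDV-R. The neighbours of MYC and readers of its RNA held 12 in 3 of 6 genes, PVT1, IGF2BP2 and IGF2BP3, with 2 of 4 shared regions lower, both of them in PVT1, and 0 higher. MXD3, MLX and MLXIPL, the other network genes, held 5 regions, of which 1 was called in all 8 lists and 0 passed in any measure.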

How the data were processed

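The authors aligned MeRIP-seq reads to hg38 with STAR (2.7.0) and an earlier GENCODE release, kept unique, deduplicated reads with SAMtools (1.10) and called peaks in each IP library against input with MACS2 (3.0.0a6). The deposited lists give, per peak, a fold enrichment (ratio), −log10 p and −log10 q values and a score derived from the q-value by the authors' peak caller. A deposited merged list gives intervals without values, and how it was merged is not given in the sources used here.

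IP tags and local background at each summit were solved from the deposited fold enrichment and −log10 p, assuming the stated extension of 100 nt and genome size of 300 Mb, and a pseudocount of 1. Depth was recovered likewise and is a reconstruction. A region counted as called where at least 1 bp of a peak overlapped it, and its level was taken at its strongest peak. Regions called in all 8 lists were compared on the log2 scale with limma (3.58.1, two-sided, Benjamini-Hochberg over all such regions, threshold 0.05), and calls with Fisher's exact test. Summits, or the midpoint where no summit lay inside a region (191 of all called regions), were classed with GENCODE release 44 over all transcripts, and separately in the Ensembl canonical transcript. Count tables of reads per region were not used here. The level at a region is known only where a peak was called, and intervals cover the spread between libraries.

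The members and gene lists were chosen with earlier results of these data known. Named were the 10 members with all their regions and, of the other lists, genes with a region called in all lists of a single line or passing on fold enrichment or within-gene level. Recovery and the limma fits were tested on simulated data, and the Fisher test was checked on a single fixed table of calls. The simulated peaks followed the same formula that recovery solves, so that test cannot show whether the formula holds for the deposited peaks. Replicate numbers did not pair the samples. Alternatives were other q-value, size and overlap rules for peaks, an own union of the lists, centring, a trended prior, a pseudocount, the replicate block, permutation and leaving out each library.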

Additional observations from a re-analysis of the deposited data

Results flagged for a closer look

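In 6 of the 72 sets of 4 libraries (12 regions, 3 measures and both lines), a single library lay far from the other 3 (Dixon's ratio above its 95% critical value), and chance gives about 1 in 20. C4-2B replicate 1 was low at the last-exon region of MYC in IP level (169.9 CPM, against 229.8 to 240.1) and in fold enrichment (1.95, against 3.28 to 3.54). MDV-R replicate 2 was high at region 2 of MGA in IP level (114.7 CPM, against 94.3 to 97.4). MDV-R replicate 3 was high in local background at region 1 of MYCL (16.9 times the library average, against 3.03 to 4.83) and at region 2 of MGA (28.4, against 15.7 to 16.9). C4-2B replicate 2 was low in local background at region 9 of MGA (22.0 times, against 35.8 to 36.6). Over all 9327 shared regions MDV-R replicate 3 had a median background of 14.9 times the library average, against 6.19 to 8.46 in the other MDV-R lists and 11.0 to 13.3 in C4-2B.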

How the results depend on the processing

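Counts are of network regions that passed. Calls in every list of a line and 0 of the other stayed at 0, except for 1 (region 2 of MXI1) with −log10 q of at least 5, and 0 to 1 when a library was left out, with the 1 being MXD1 without C4-2B replicate 3 and region 6 of MGA without MDV-R replicate 3. In IP level the 2 MNT regions passed under every alternative with limma, joined by regions 2 and 3 of MGA (both lower in MDV-R) to make 4 after centring. Region 1 of MGA, lower in MDV-R, made 3 with regions called in at least 3 lists of each line. The count was 2 to 3 when a library was left out, with 3 without C4-2B replicate 1 (region 3 of MGA, lower) and without MDV-R replicate 1 (region 1 of MGA, lower). By adjusted exact permutation 0 passed, of the members and of all 9327 regions alike, since the smallest p that 4 against 4 allows left a lowest adjusted p of 0.0896 (0.126 for the within-gene level), so this count says nothing about stability. In background 0 passed, except for 2 with a trended prior, and 0 to 3 when a library was left out. In fold enrichment 0 passed, and 0 to 3 when a library was left out. Both values of 3 came without MDV-R replicate 3, at MYC region 3 and MGA region 2 in each measure, with MGA region 3 in background and MGA region 7 in fold enrichment. In the within-gene level the single call became 0 with regions called in at least 3 lists of each line, 0 with the replicate block, 0 against the strongest other region and 0 by permutation, and ran from 0 to 3 when a library was left out, with 0 without C4-2B replicates 1 and 4 and MDV-R replicates 1, 2 and 3, 2 without C4-2B replicates 2 and 3, and 3 without MDV-R replicate 4.

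Values that were uncalled and changed sign are given as log2 differences. Centring gave a background of 0.23 at MYCL region 2, 0.27 at MAX region 4 and 0.066 at MLXIP region 2, and a fold enrichment of -0.031 at MYCL region 2, -0.25 at MNT region 2 and -0.081 at MLXIP region 3. With at least 3 lists of each line the within-gene level of MNT region 2 was 0.069. Leaving out a library gave a background of -0.49 to 0.17 at MAX region 4 and -0.10 to 0.34 at MNT region 5, and a fold enrichment of -0.40 to 0.24 at MYCL region 1 and -0.12 to 0.34 at MNT region 2. It gave a within-gene level of -0.033 to 0.084 at MYCL region 1, -0.084 to 0.033 at MYCL region 2, -0.19 to 0.089 at MNT region 2, -0.034 to 0.19 at MNT region 5 and -0.056 to 0.063 at MGA region 9. The causes were not tested. Same-numbered libraries of the lines did not deviate together (correlations -0.0667 to 0.0437 over the shared regions), 4 of 8 lists correlated best with their own number, and the replicate block left the other counts at 2, 0 and 0. At the weakest calls, 5 to 9 tags stood at the summit, and an uncalled region has no value, so absence of a call is a limit of depth as much as a low level.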
